A study of Mus musculus with 4 samples.

Results

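The semaphorin ligands and their plexin and neuropilin receptors were examined in 4 regions of the embryonic mouse brain. These were the olfactory bulb, the superior colliculus of the midbrain roof, the cerebellum and, in the hindbrain, the pontine nucleus. The genes were taken by a rule on symbols alone, as the semaphorins of classes 3 to 7, the plexins and the 2 neuropilins. No measured value entered the rule, but it was set with earlier results of these data known. There were 31 of them, 20 ligand genes and 11 receptor genes, among 19938 genes named on the arrays. All embryos were of the outbred ICR stock at embryonic day 17.5, with no genotype or treatment given in the labels. Tissue was pooled before measurement, with 14 mice in the bulb pool, 15 in the pontine pool, 16 in the collicular pool and 13 in the cerebellar pool, and each pool was hybridised to 1 Affymetrix array. With 1 array per region there is no SD and no p-value, precision is limited by the number of arrays, and regional differences cannot be told apart from differences between single dissections.

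Semaphorins are proteins that steer growing axons and migrating neurons, mostly by repulsion and in some settings by attraction. Those of class 3 are secreted, those of classes 4 to 6 span the membrane, and the class 7 protein is tethered to it by a lipid anchor. Plexins are the signalling receptors and act on small GTPases and the cytoskeleton. Most secreted semaphorins reach A-type plexins through a neuropilin, which binds the ligand, while membrane-bound semaphorins usually bind plexins directly. In the developing brain the system guides commissural, olfactory, retinal and corticofugal axons and places migrating neurons, cerebellar granule cells and pontine neurons among them.

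The values are log2 signals, so that 1 unit is a 2-fold difference in signal. Array medians over all probe sets lay between 8.07 and 8.13. Only genes reaching more than 8.56 on some array were compared, a floor set at the median of all gene levels that left 10908 genes. "Called higher" in a region means 1 log2 unit or more over each of the other 3 arrays, and "called lower" 1 log2 unit or more under each of them. As a measure of background, 207 genes of vomeronasal receptors and beta defensins, not expected in brain, had a 95th percentile of level of 7.32 and a highest range over the 4 arrays of 0.88. Their median level was 5.19 and 0 of them exceeded the floor, so their spread does not measure that of genes at the levels compared. Each tissue label was set beside 6 marker genes. These lists were picked with earlier results of these data known, so their match is no independent check of the labels. In each of the 4 regions all 6 of its own markers were highest on its own array, although the tectal gene Tal2 stayed within the background level. The margin was small for the pontine marker Pax6, at 11.76 against 11.64 in the cerebellum. Log2 of the summed signal lay between 11.53 and 11.80 for 8 microglial markers and between 9.54 and 10.23 for 2 genes of red blood cells. In bulk tissue fewer cells of a type and less RNA per cell cannot be told apart.

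Of the 31 genes, 27 exceeded the level floor. Sema3b, Sema3d, Sema3g and Plxnb3 did not, with highest levels of 8.13, 7.66, 8.09 and 7.71, and their levels differed over the arrays by at most 0.40. The next gene above them, Sema3c, reached 9.93. A range of at least 1 log2 unit between the highest and the lowest array was found in 14 of the 27 genes (51.9%), against 15.0% of all genes compared. The median range was 1.03, or 0.89 over all 31 genes, against 0.39 for all genes compared. Among the 17 ligands above the floor 9 ranged this widely, with a median of 1.03, and among the 10 receptors 5 did, with a median of 0.99. A range of 2 log2 units or more was found in 5 genes, Sema3a, Nrp1, Sema3e, Sema5a and Sema3c, where the share of all genes compared was 3.60%. Sema3e passed the floor only through the olfactory bulb and Sema3c only through the bulb and the superior colliculus, so their place among the genes compared rests on those regions. With no level floor the count was the same 14, of 31 genes, against 9.33% of 19938 genes.

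**Figure D1:**
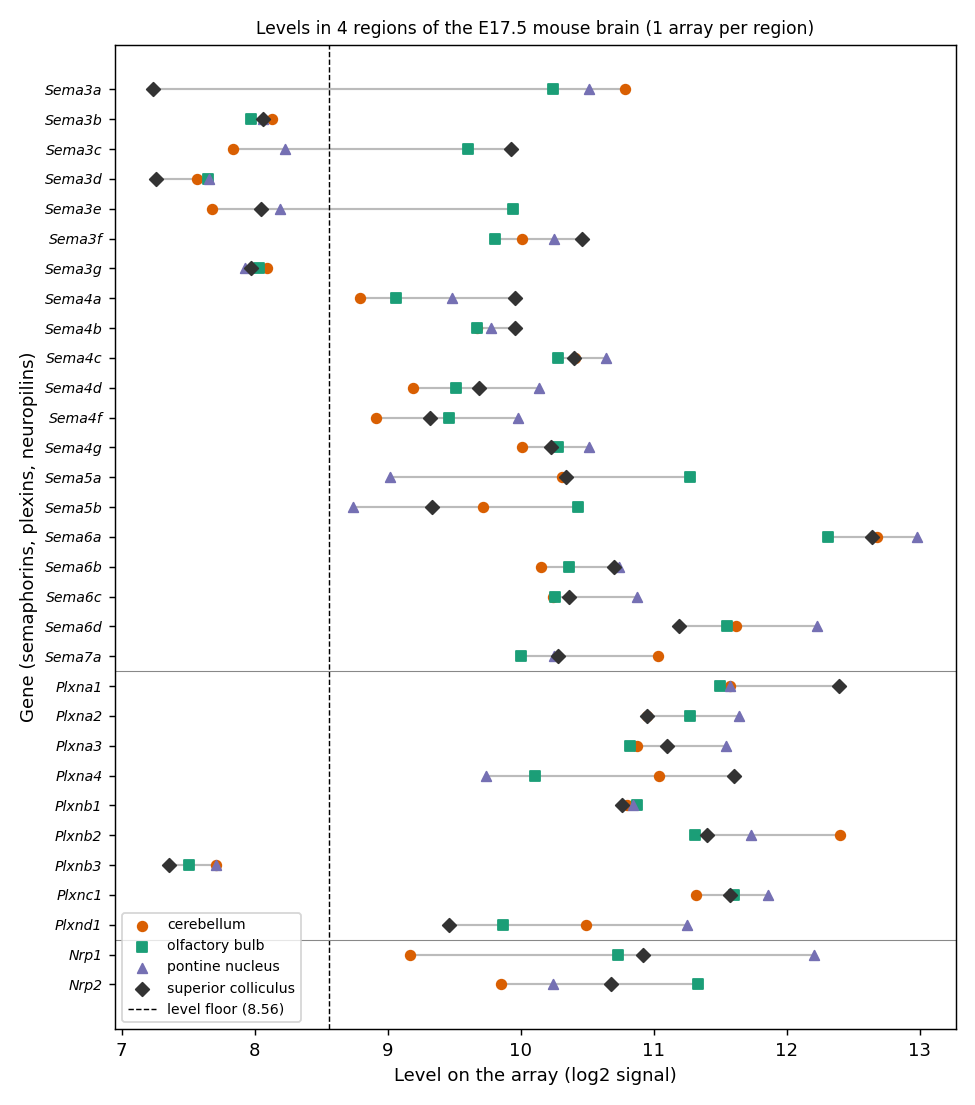
Levels of the 31 genes on the 4 arrays (horizontal axis, log2 signal), 1 row per gene and 1 marker per region, with a line from the lowest to the highest array and the level floor of 8.56 dashed. Sema3a has the longest line, from 7.24 in the superior colliculus to 10.78 in the cerebellum, and Plxnb1 one of the shortest, 0.11 long.

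**Figure D2:**
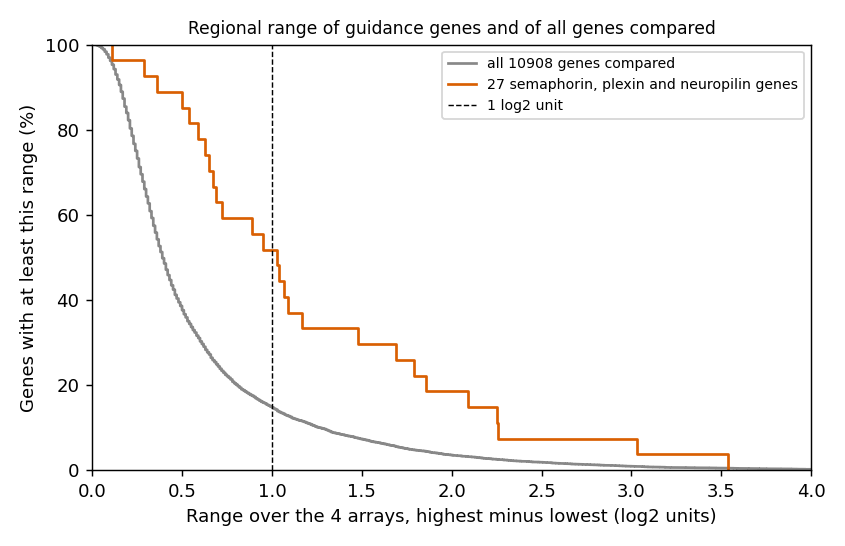
Percentage of genes (vertical axis) whose range over the 4 arrays is at least the value on the horizontal axis (log2 units), for the 27 guidance genes above the floor and for all 10908 genes compared. At 1 log2 unit the percentages are 51.9% and 15.0%.

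The size rule called 4 of the 27 genes in some region (14.8%), against 4.58% of all genes compared. These were Sema3a, Sema3e and Sema5a among the ligands and Nrp1 among the receptors, each with a different pattern. The remaining genes with a wide range were shared between 2 or more regions, so that no single array stood 1 log2 unit apart.

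Sema3a encodes the secreted repellent that collapses growth cones through Nrp1 and A-type plexins. It read 10.24 in the bulb, 10.51 in the pontine nucleus, 7.24 in the colliculus and 10.78 in the cerebellum. The bulb, the pontine nucleus and the cerebellum lay within 0.54 of each other, and the superior colliculus lay 3.0 log2 units below the lowest of them, or 8.0-fold. Its level there was within the range of the background genes, so the true fold may be larger. Sema3a was the only member called lower in the superior colliculus, where 0.165% of all genes compared were called lower.

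Nrp1, the neuropilin that binds Sema3a and is also a receptor for vascular endothelial growth factor, had the widest range of the receptors. Its levels were 10.73 in the bulb, 12.20 in the pontine nucleus, 10.92 in the colliculus and 9.17 in the cerebellum. It was called in 2 regions, as lower in the cerebellum and as higher in the pontine nucleus. The cerebellum lay 1.56 log2 units below the next lowest region, and the pontine nucleus 1.28 above the next highest, or 2.43-fold. No other member was called in these directions, which held for 0.156% and 0.798% of all genes compared. Between the pontine nucleus and the cerebellum the difference was 3.03, or 8.17-fold.

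Sema3e, a secreted ligand that signals through Plxnd1 without needing a neuropilin, was highest in the olfactory bulb. It read 9.94 there, 7.68 in the cerebellum, 8.05 in the colliculus and 8.19 in the pontine nucleus. The gap to the next region was 1.75 log2 units, or 3.36-fold, and it was the only member called higher in the bulb, against 0.972% of all genes compared. The other 3 arrays lay below the level floor and within 0.51 of each other.

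Sema5a belongs to the class of transmembrane semaphorins that carry thrombospondin repeats. It was the only member called lower in the pontine nucleus, as 0.981% of all genes compared were. Its levels were 11.27 in the bulb, 9.02 in the pontine nucleus, 10.34 in the colliculus and 10.31 in the cerebellum, with the pontine nucleus 1.29 below the next region. Sema5b, the other gene of this class, had the same highest and the same lowest region, at 10.43, 8.74, 9.33 and 9.72 in the same order of regions. Its pontine level was only 0.59 below the next lowest, so it was not called. From the bulb to the pontine nucleus the difference was 2.25 log2 units for Sema5a and 1.69 for Sema5b.

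The upstream sequences of these 5 genes are shown because 4 of them carry the region-specific calls. The Sema5b sequence is included because that gene shared its highest and lowest region with Sema5a. Each is the 250 bases 5′ of the annotated gene start, from RefSeq on build GRCm38.p6, printed 5′ to 3′ on the plus strand of the genome, on which all 5 genes lie. Sema3a was read at chr5:13396534-13396783, Sema3e at chr5:14025026-14025275, Sema5a at chr15:32244563-32244812, Sema5b at chr16:35541112-35541361 and Nrp1 at chr8:128358823-128359072. Capitals mark GC boxes, searched as GGGCGG and its reverse complement CCGCCC, with overlapping matches counted separately.
Sema3a: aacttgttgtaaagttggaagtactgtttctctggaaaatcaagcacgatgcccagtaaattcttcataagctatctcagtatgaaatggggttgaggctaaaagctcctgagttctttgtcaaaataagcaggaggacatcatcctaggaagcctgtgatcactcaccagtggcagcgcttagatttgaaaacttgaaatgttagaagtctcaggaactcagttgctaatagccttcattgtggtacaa
Sema3e: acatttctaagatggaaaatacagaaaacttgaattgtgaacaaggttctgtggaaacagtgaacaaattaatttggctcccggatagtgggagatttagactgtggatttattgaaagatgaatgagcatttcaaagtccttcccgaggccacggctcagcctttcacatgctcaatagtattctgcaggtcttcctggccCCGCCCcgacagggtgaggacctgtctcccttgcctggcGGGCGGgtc
Sema5a: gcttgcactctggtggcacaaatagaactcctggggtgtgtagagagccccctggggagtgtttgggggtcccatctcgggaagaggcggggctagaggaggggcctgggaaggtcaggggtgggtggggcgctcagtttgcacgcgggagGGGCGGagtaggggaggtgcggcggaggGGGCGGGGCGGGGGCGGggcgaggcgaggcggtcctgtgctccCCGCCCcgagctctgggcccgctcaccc
Sema5b: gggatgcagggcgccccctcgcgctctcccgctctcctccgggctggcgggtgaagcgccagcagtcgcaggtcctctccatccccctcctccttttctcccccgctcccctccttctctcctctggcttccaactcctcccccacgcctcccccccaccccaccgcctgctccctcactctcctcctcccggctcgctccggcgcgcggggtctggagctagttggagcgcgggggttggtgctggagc
Nrp1: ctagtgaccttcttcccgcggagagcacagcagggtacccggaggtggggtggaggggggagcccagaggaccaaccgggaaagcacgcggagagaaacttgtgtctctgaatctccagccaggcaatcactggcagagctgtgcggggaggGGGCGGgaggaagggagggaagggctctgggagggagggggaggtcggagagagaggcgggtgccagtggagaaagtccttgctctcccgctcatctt

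The 5 windows differed in base composition. The Sema3a window held 2 CpG dinucleotides and no GC box, at 40.8% G and C, and 15.1% of the windows of protein-coding genes held fewer CpG. The Sema5a and Sema5b windows both had 72.0% G and C, with 17 and 19 CpG, yet Sema5a held 5 GC boxes and Sema5b none. The Nrp1 window held 1 GC box and 11 CpG, and that of Sema3e 2 GC boxes and 7 CpG. RefSeq windows were found for 26 of the 31 genes, 37 windows in all because some genes have several starts. A GC box was present in 27 of the 37 windows (73.0%), against 42.6% of 21262 windows of protein-coding genes and 32.7% of 32851 windows of all genes. None of the 37 held the TATA box TATAAA on either strand, which 11.6% of protein-coding windows did. The CCAAT box CCAAT, on either strand, was in 7 of the 37, and an E-box, CANNTG, in 19, where the protein-coding shares were 35.4% and 62.8%. These matches describe the letters of the windows and were not tested against the levels.

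Among the other secreted ligands Sema3c, which binds both neuropilins, split the regions into 2 pairs. It read 9.93 in the colliculus and 9.60 in the bulb, but only 8.23 in the pontine nucleus and 7.84 in the cerebellum. The lower of the high pair lay 1.37 above the higher of the low pair. Sema3f, the ligand of Nrp2, varied little, at 10.01, 9.81, 10.25 and 10.46 in the cerebellum, bulb, pontine nucleus and colliculus. In the RefSeq gene order Sema3d, Sema3a, Sema3e and Sema3c follow one another on chromosome 5, with no protein-coding gene between Sema3d and Sema3a, 3 between Sema3a and Sema3e and 15 between Sema3e and Sema3c. The 3 of them above the floor had 3 different patterns: Sema3a was low in the colliculus, Sema3e high in the bulb, and Sema3c high in both. Sema3d was below the floor on every array, between 7.26 and 7.66. Likewise Sema3b and Sema3f lie on chromosome 9 with 3 protein-coding genes between them, and Sema3b read between 7.97 and 8.13.

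The transmembrane ligands of classes 4 and 6 were nearly all highest in the pontine nucleus, by small margins. All 10 genes, 6 of class 4 and 4 of class 6, lay above the mean level elsewhere (the mean of the other 3 arrays) there, as did 49.4% of all genes compared, and 8 of the 10 had their highest level there, against 28.4%. The median difference from the mean level elsewhere was 0.31 for class 4 and 0.51 for class 6, while the median over all genes compared was 0.00. None of the 10 passed the size rule in any region. The joining of classes 4 and 6 was not among the planned comparisons. The 2 genes of class 5, also transmembrane, had a median difference of -1.35 in the pontine nucleus. In the background genes 95% of such differences lay between -0.32 and 0.35. Within that band lay Sema4b at only 0.01, Sema4a at 0.21, Sema4c at 0.28, and Sema4g and Sema6b at 0.34 each, as did the class 4 median. The other genes of classes 4 and 6, Sema4d, Sema4f, Sema6a, Sema6c and Sema6d, lay above it, between 0.44 and 0.78.

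Within class 4, Sema4f read 9.46 in the bulb, 9.98 in the pontine nucleus, 9.32 in the colliculus and 8.91 in the cerebellum. Sema4d, the ligand of Plxnb1, was likewise highest in the pontine nucleus and lowest in the cerebellum, at 9.51, 10.14, 9.69 and 9.19. A second Sema4d probe set read 9.01, 9.60, 9.46 and 8.75, with the same highest and lowest region. Sema4a and Sema4b were the exceptions with their maximum in the superior colliculus, Sema4a at 9.06, 9.48, 9.96 and 8.79 in that order. Sema4a differed by 1.17 between the cerebellum and the colliculus, or 2.25-fold. Sema4b, Sema4c and Sema4g had ranges of 0.29, 0.36 and 0.50. In the cerebellum all 6 class 4 genes lay below the mean level elsewhere, as did 6586 of the 10908 genes compared, with a median of -0.46 against -0.06. Sema4c was the smallest of these at -0.03, and it changed side when the arrays were quantile normalised.

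Of the class 6 ligands, which bind A-type plexins directly, Sema6d had the widest range. It read 11.55 in the bulb, 12.23 in the pontine nucleus, 11.19 in the colliculus and 11.62 in the cerebellum, a range of 1.04 that became 0.99 under quantile normalisation. Sema6a read 12.31, 12.98, 12.64 and 12.68 in the same order of regions. Sema6b and Sema6c had ranges of 0.59 and 0.63, and the 2 probe sets of Sema6b gave identical values. Sema6a and Sema6c were 0.30 and 0.51 higher in the pontine nucleus than in the next region, whereas Sema6b was nearly level between the pontine nucleus and the colliculus, at 10.74 and 10.70.

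The markers of postmitotic neurons moved in part with these ligands. Of 6 such genes, 3 were highest in the pontine nucleus and 5 lowest in the cerebellum, and log2 of their summed signal was 15.68 in the bulb, 15.76 in the pontine nucleus, 15.63 in the colliculus and 15.42 in the cerebellum. All 6 were above the background level. Their part in the pontine and cerebellar levels of the class 4 and 6 genes was not tested.

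Sema7a, the lipid-anchored ligand that binds Plxnc1 and integrins, was highest in the cerebellum. It read 11.03 there against 10.00 in the bulb, 10.28 in the colliculus and 10.25 in the pontine nucleus, a gap of 0.75 to the next region. Of the receptors only Plxnb2, which acts in the proliferation and migration of granule cell precursors in mice, shared this maximum. It read 11.31 in the bulb, 11.73 in the pontine nucleus, 11.40 in the colliculus and 12.40 in the cerebellum, 0.67 above the next region. All 5 measured cell division markers were also highest in the cerebellum, with log2 of their summed signal at 12.68 in the bulb, 11.31 in the pontine nucleus, 11.10 in the colliculus and 13.22 in the cerebellum. Their part in the levels of Sema7a and Plxnb2 was not tested.

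**Figure D3:**
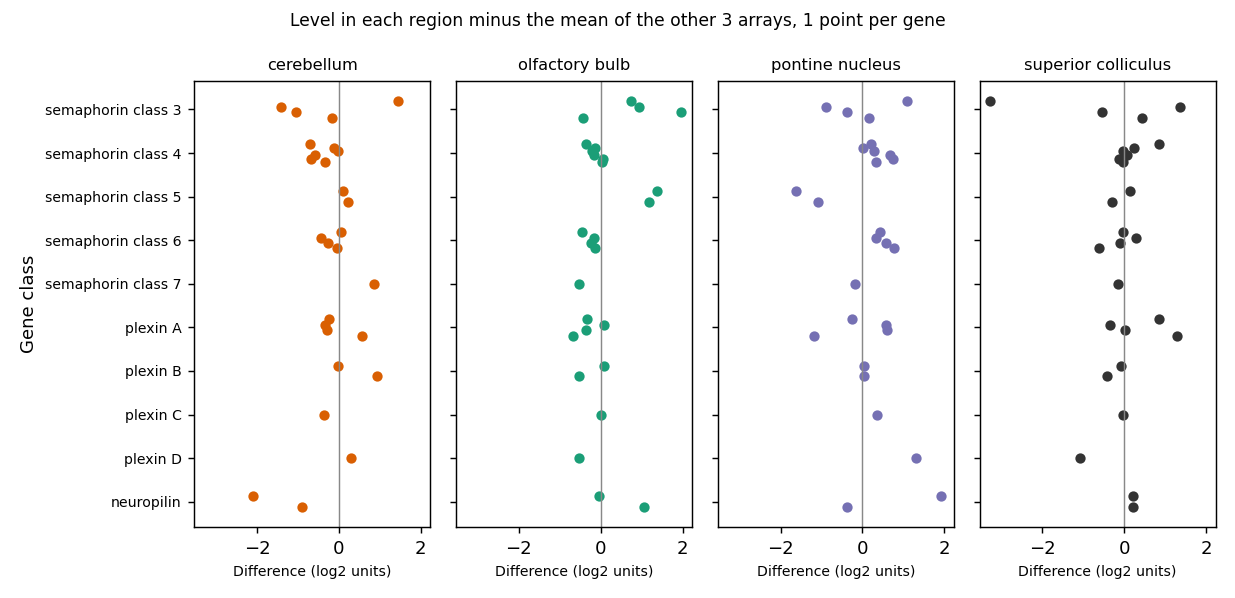
Difference between a gene's level in each region and the mean level of the other 3 arrays (horizontal axis, log2 units), 1 point per gene above the level floor, by class, 1 panel per region. In the pontine nucleus panel all class 4 and class 6 points lie right of 0 and both class 5 points lie left, and in the superior colliculus panel the leftmost point is Sema3a at -3.27.

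Among the A-type plexins, the signalling partners of the neuropilins and of the class 6 ligands, 2 were highest in the colliculus and 2 in the pontine nucleus. Plxna4 read 10.11 in the bulb, 9.74 in the pontine nucleus, 11.60 in the colliculus and 11.04 in the cerebellum, a range of 1.86 or 3.63-fold. Plxna1 was also highest in the colliculus, at 12.39 against 11.50 to 11.57 elsewhere. Plxna2 and Plxna3 were instead highest in the pontine nucleus, at 11.64 and 11.54, where they exceeded the next region by 0.37 and 0.44. Their ranges were 0.69 and 0.72, and neither reached the size used here.

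Plxnd1, the receptor of Sema3e, which is prominent in blood vessels and in some neurons, read 9.87 in the bulb, 11.25 in the pontine nucleus, 9.46 in the colliculus and 10.49 in the cerebellum. Its range of 1.79, or 3.46-fold, was second to that of Plxna4 among the plexins. The 8 endothelial markers, all above the background level, were highest in the bulb for 3, in the pontine nucleus for 2 and in the colliculus for 3. Log2 of their summed signal lay between 12.10 and 12.28, with the cerebellum lowest. Their part in the levels of Plxnd1 was not tested. The B-type plexin Plxnb1 was the flattest of the 31 genes, between 10.76 and 10.87, and Plxnc1 lay between 11.32 and 11.86.

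Nrp2, the neuropilin preferred by Sema3f, was lowest in the cerebellum like Nrp1 but was highest in a different region. Its levels were 11.33 in the bulb, 10.24 in the pontine nucleus, 10.68 in the colliculus and 9.85 in the cerebellum. The bulb exceeded the next region by 0.65, and the range of 1.48 corresponds to 2.79-fold. In the pontine nucleus, where Nrp1 peaked, Nrp2 lay 0.38 below the mean level elsewhere.

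The bulb array, on which Sema3e, Sema5a, Sema5b and Nrp2 were highest, was also the highest, or tied for it, for all 8 meningeal and fibroblast markers. Log2 of their summed signal was 11.80 in the bulb, against 10.61 to 10.83 on the other arrays. Of the 8, Lum, Aldh1a2 and Ogn stayed within the background level on every array, Foxc1 read the same in the bulb and the colliculus, and Dcn had the widest gap, at 10.59 in the bulb against 7.08 to 8.65. Oligodendrocyte lineage markers were lowest in the bulb for 5 of 6 genes, with log2 of the summed signal at 11.64 against 11.95 to 12.03. Of these 5, Cspg4 and Mbp were nearly level with the next array, at 8.77 against 8.79 and 8.92 against 8.95. The other gene, Sox10, was instead highest in the bulb, at 9.34 against 8.67 to 8.85. Microglial markers were highest in the bulb for 5 of 8 genes, and both genes of red blood cells were highest there. The part of these cell types in the bulb levels was not tested.

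Counted over all 27 genes, 13 had their highest level in the pontine nucleus (48.1%), against 28.4% of all genes compared. The cerebellum was highest for 3 (11.1%, against 17.9%), the olfactory bulb for 5 (18.5%, against 27.2%) and the superior colliculus for 6 (22.2%, against 24.0%). The lowest level was in the cerebellum for 11 genes (40.7%, against 30.9%), in the bulb for 7 (25.9%, against 17.7%), in the pontine nucleus for 3 (11.1%, against 26.0%) and in the colliculus for 4 (14.8%, against 22.4%), with 2 genes, Sema4b and Plxna2, tied between regions. Those lowest in the pontine nucleus were Sema5a, Sema5b and Plxna4. Set against the mean level elsewhere, 19 of the 27 lay above it in the pontine nucleus, 8 in the cerebellum, 11 in the bulb and 12 in the colliculus, where 49.4%, 39.0%, 55.8% and 49.7% of all genes compared did. The median difference from the mean level elsewhere was 0.28 in the pontine nucleus, -0.25 in the cerebellum, -0.13 in the bulb and -0.02 in the colliculus. Over all genes compared these medians were 0.00, -0.06, 0.03 and 0.00. No member was called higher in the cerebellum, higher in the superior colliculus or lower in the olfactory bulb, where 0.605%, 0.715% and 0.431% of all genes compared were.

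Region by region, 4 to 7 of the 27 genes were at least 1 log2 unit apart in each of the 6 pairs. The pontine nucleus differed from the superior colliculus in 7 genes, against 5.84% of all genes compared. Here and in the other pairs, the percentage of all genes compared that differed in the stated direction follows in parentheses. Higher in the pontine nucleus (1.72%) were Sema3a, Nrp1, Plxnd1 and Sema6d, by 3.27, 1.28, 1.79 and 1.04. On the collicular side (4.12%), Plxna4, Sema3c and Sema5a had pontine-minus-collicular differences of -1.86, -1.70 and -1.32. The olfactory bulb differed from the pontine nucleus in 7 genes as well, against 7.76%. Higher in the bulb (5.20%) were Sema5a, Sema3e, Sema5b, Sema3c and Nrp2, by 2.25, 1.75, 1.69, 1.37 and 1.09, and higher in the pontine nucleus (2.57%) were Nrp1 and Plxnd1.

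The cerebellum differed from the olfactory bulb in 6 genes, against 4.52% of all genes compared. Sema7a and Plxnb2 were higher in the cerebellum (2.06%), by 1.03 and 1.09, and both neuropilins, Sema3c and Sema3e were higher in the bulb (2.46%). The cerebellum and the superior colliculus also differed in 6 genes, against 5.71%, with Sema3a, Plxnd1 and Plxnb2 higher in the cerebellum (3.08%), Sema3a by 3.54 and Plxnd1 by 1.03, while Plxnb2 just reached the threshold. Sema3c, Nrp1 and Sema4a were higher in the colliculus (2.63%). Between the cerebellum and the pontine nucleus 4 genes differed, against 6.37%, namely Plxna4 and Sema5a on the cerebellar side (4.49%), by 1.30 and 1.29, and Nrp1 and Sema4f on the pontine side (1.88%). The bulb and the colliculus likewise differed in 4 genes, against 5.67%, with Sema3a, Sema3e and Sema5b higher in the bulb (2.94%) and Plxna4 in the colliculus (2.73%). These pairs share arrays, and the largest median absolute difference was that between the cerebellum and the pontine nucleus, 0.61 against 0.22 for all genes compared.

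The regional profiles of ligands were set beside those of receptors that they are known to bind. Sema3a was highest in the cerebellum, by only 0.27, and Nrp1 was lowest there. In the superior colliculus, where Sema3a was lowest, Nrp1 read 10.92. Of the A-type plexins, Plxna1 and Plxna4 had their maxima in the colliculus. Plxna3 and Plxna2 differed there from the mean level elsewhere by 0.02 and -0.34. In the pontine nucleus both Sema3a and Nrp1 lay above the mean level elsewhere, by 1.09 and 1.93. Sema3e was highest in the bulb, while its receptor Plxnd1 was highest in the pontine nucleus and lay 0.53 below the mean level elsewhere in the bulb. Sema3c and Nrp2 were both above the mean level elsewhere in the bulb and the colliculus and both below it in the cerebellum and the pontine nucleus. Nrp1, which Sema3c also binds, was 1.93 above that mean in the pontine nucleus, where Sema3c had a difference of -0.89, and -0.03 from it in the bulb. Sema3f and Nrp2 lay on opposite sides of it in the bulb, at -0.43 and 1.07.

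For the membrane-bound ligands, Sema4d varied by 0.95 against a nearly flat Plxnb1. Sema4c and Sema4g were both highest in the pontine nucleus, each by only 0.23, while Plxnb2 was highest in the cerebellum. The class 5 ligands were lowest in the pontine nucleus, where Plxna3, one of their reported receptors, was highest. Plxna1, also reported to bind them, differed there from the mean level elsewhere by -0.25. Plxnb3, another reported receptor of Sema5a, was below the floor on all arrays, between 7.36 and 7.71. Sema6a and Plxna2 were both highest in the pontine nucleus, by 0.30 and 0.37, and Plxna4, the other receptor of Sema6a, was lowest there. Sema6d was highest in the pontine nucleus and its receptor Plxna1 in the colliculus. Sema7a was highest in the cerebellum, where Plxnc1 was lowest by only 0.25. Signals of different probe sets were not set against each other, so only regional profiles, not amounts of ligand and receptor, are compared.

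**Figure D4:**
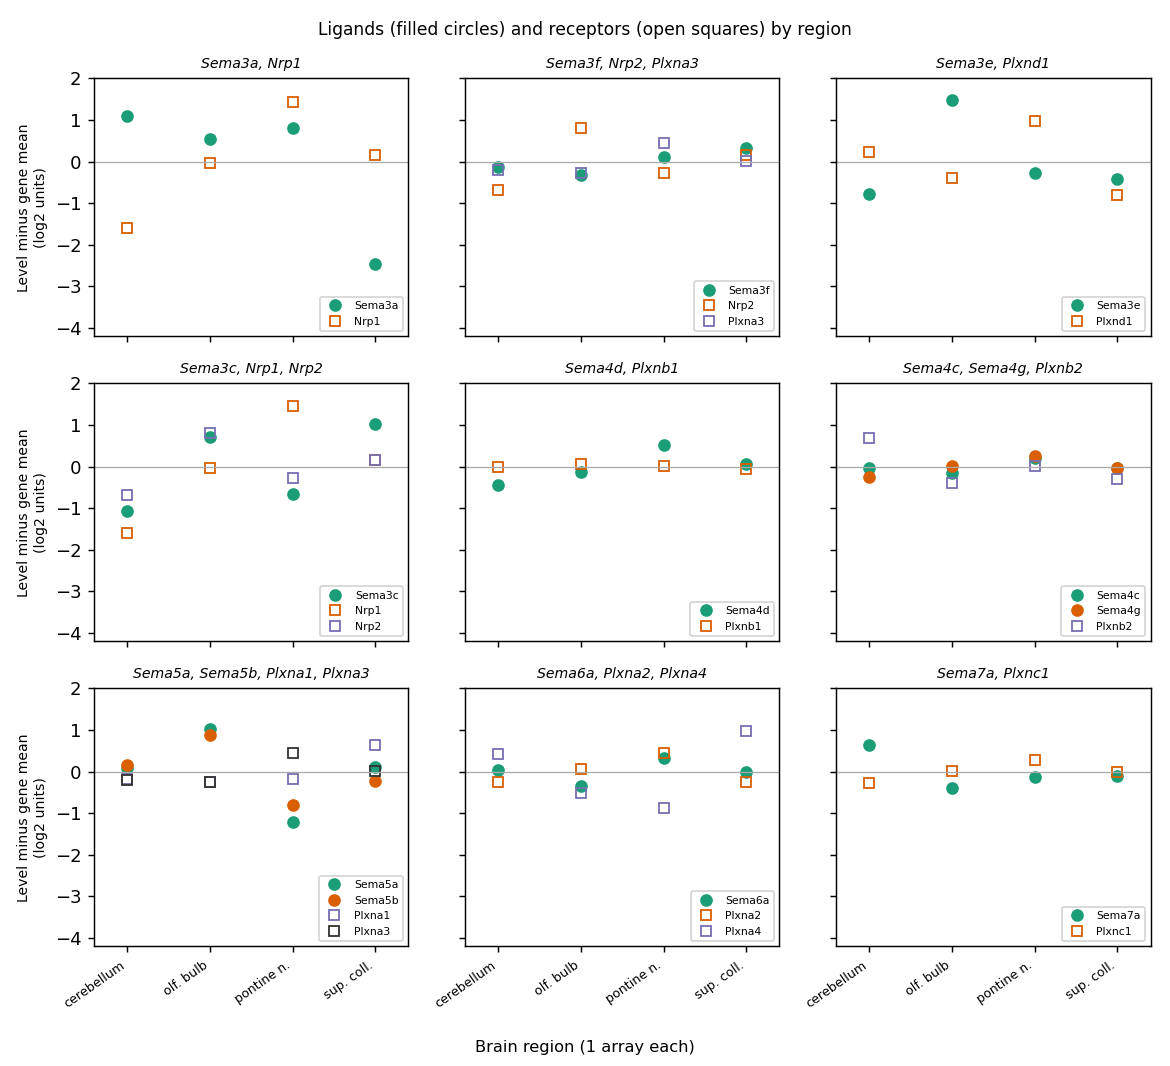
Level of each gene minus its own mean over the 4 arrays (vertical axis, log2 units) in each region (horizontal axis), for 9 sets of ligands (filled circles) and receptors (open squares) known to bind. In the first panel Sema3a lies far below 0 in the superior colliculus and Nrp1 below 0 in the cerebellum, and in the panel of Sema5a and Sema5b both ligands lie above 0 in the olfactory bulb and below 0 in the pontine nucleus.

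Other genes of the pathway were taken from a list of 52, 12 co-receptors and membrane partners and 40 intracellular effectors, of which 49 were measured and 46 exceeded the floor. A range of at least 1 log2 unit was found in 8 of the 46 (17.4%), close to the 15.0% of all genes compared, and their median range was 0.47, where that of the ligands and receptors was 1.03. In the pontine nucleus 32 of the 46 lay above the mean level elsewhere and 14 below, with a median of 0.16, where 49.4% of all genes compared lay above and their median was 0.00. In the cerebellum 11 lay above and 35 below, with a median of -0.23, where 39.0% of all genes compared lay above and their median was -0.06.

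The size rule called 3 of the 46 partner genes (6.52%), near the 4.58% of all genes compared. Chl1, an adhesion molecule of the L1 family that associates with Nrp1, read 9.98 in the olfactory bulb against 11.83 to 12.41 on the other arrays, and was 1.85 lower there than in the next region. Met, a receptor tyrosine kinase that can associate with B-type plexins, had a pontine level of 9.19, and read 8.00 in the bulb, 7.89 in the colliculus and 7.42 in the cerebellum. Met passed the level floor of 8.56 only through the pontine nucleus, so its place among the genes compared rests on that region. Rnd3, a small GTPase of the Rnd family whose members bind plexins, had a pontine level of 8.04 and read between 10.64 and 10.99 on the other arrays, a gap of 2.60.

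Cntn2, Mical2, Rnd1, Rnd2 and Dpysl4 had ranges between 1.13 and 1.34 with no single region apart. Cntn2, an axonal adhesion molecule, was high in the bulb and the pontine nucleus, at 11.82 and 11.73, and read 10.54 and 10.48 in the cerebellum and the colliculus. Mical2, of the actin-oxidising enzymes that act downstream of plexins, had a pontine level of 9.72 and a collicular level of 8.73, the next highest, a gap of 0.99. Of the collapsin response mediators, which relay the Sema3a signal to microtubules, Crmp1, Dpysl2, Dpysl3 and Dpysl5 had ranges of 0.37, 0.34, 0.39 and 0.61. All 4 and Dpysl4 were highest in the pontine nucleus, as were 43.5% of the 46 partner genes and 28.4% of all genes compared. The leads of Crmp1, Dpysl2, Dpysl3 and Dpysl5 were small, at 0.21, 0.08, 0.17 and 0.26.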

How the data were processed

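The values deposited by the authors are log2 signals of probe sets, 1 column per array, made with Affymetrix Expression Console, per the submitters' processing notes. The methods of summarisation and normalization are not stated in those notes, nor is a genome build, and the log2 scale was inferred from values between 2.43 and 14.57. Scaling between arrays can remove general differences between regions, and signals near background compress folds. Per the labels' protocols, total RNA was copied to sense-strand cDNA and biotin-labelled. Of 35556 probe sets, 21789 had 1 symbol in an annotation of 2016, and 1621 with several symbols and 12146 without an entry were not used. The highest-mean probe set gave each of 19938 genes its level. All 31 members matched RefSeq (GRCm38.p6) by Entrez ID. Every member was accounted for, with 4 levels for those ranging by at least 1 log2 unit. Partner genes were named when called, and the others named were picked after their values were seen. The members, lists and rules were chosen with earlier results of these data known. No test was made. The calling rule was tested on simulated levels with known shifts. Alternatives were other level floors, quantile normalization, the mean of probe sets, a threshold of 2 log2 units, and other comparators. Python 3.11.15, NumPy 2.4.6, pandas 2.3.3 and Matplotlib 3.10.9 were used.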

Additional observations from a re-analysis of the deposited data

How the results depend on the processing

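Of 184 recomputed counts and medians, 154 kept their value within 1.5 times the main count or within 0.167 log2 units, the SD of differences among background genes. Quantile normalization, no level floor, the floor from background genes and the mean of probe sets moved none of them past these limits, although quantile normalization took Sema6d to a range of 0.99 and the count of wide-ranging members from 14 to 13. The lower floors could not change the members' counts, since the 4 members below the floor ranged by at most 0.40. The mean of probe sets could alter only Sema4d, as the 2 probe sets of Sema6b were identical and the other members had 1. Some unchanged counts were 0 in every setting, such as partner genes higher in the cerebellum. With a floor at the 75th percentile (10.03), which Sema3c, Sema3e, Sema4a, Sema4b and Sema4f do not pass, members higher in the olfactory bulb went from 1 to 0, wide-ranging partner genes from 8 to 5 and partner genes higher in the pontine nucleus from 1 to 0, since fewer genes were compared. The shares of all genes compared were then 1.09%, 16.2% and 1.01%. Within the limits above, wide-ranging members went from 14 to 10, against the same 16.2%. Members apart in a pair of regions went from 4 to 7 per pair to 3 to 6. With a rule of 2 log2 units the wide-ranging members were 5 and partner genes 2, against 3.60% of all genes compared. Members lower in the cerebellum, higher in the olfactory bulb, and higher or lower in the pontine nucleus were 0, against 0%, 0.339%, 0.193% and 0.119%. Partner genes lower in the bulb and higher in the pontine nucleus were 0, against 0.0458% and 0.193%. Each pair of regions kept 1 member, apart from cerebellum against superior colliculus with 2. The shares of all genes compared in the pairs were 0.816% to 1.90%. Against the mean of the other arrays, members higher and lower were 3 and 3 for the pontine nucleus, 2 and 2 for the colliculus and 1 and 3 in the cerebellum, with 4 higher in the bulb. The shares of all genes compared rose too, to 1.65% and 3.62%, 2.21% and 1.64%, 2.42% and 0.917%, and 2.34%, in the same order. Partner genes higher were 1 in the bulb and 3 in the pontine nucleus, against the same 2.34% and 1.65%. Against the lowest of the other arrays the members' medians turned to 0.04 in the cerebellum, 0.28 in the bulb and 0.33 in the colliculus, and against the highest to -0.03 in the pontine nucleus, which follows from the comparator. No paired analysis was possible because each region has 1 array. Signal over background limits the fold of Sema3a in the superior colliculus.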
